A study of Danio rerio with 4 samples.

Results

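The CTCF peaks of chromosome 4 were all peaks that the deposited list places on that chromosome, 1117 of the 36540 peaks on the 25 chromosomes (3.06%) and of 37625 in the whole list. CTCF occupancy was mapped by ChIP-seq in whole zebrafish embryos of the AB strain at 24 hpf (hours post fertilisation) with an antibody against the HA epitope, and input DNA served as the control. Both the 2 ChIP libraries and the 2 input libraries carried the genotype ctcf{HPSH}, from crosses of ctcf HA/wt fish, and each biological replicate held 2000 pooled embryos, so all tissues of the embryo are mixed and the genotype of single embryos is not given. The peaks were called on the combined replicates, per the file header, so there is 1 value per peak, no spread between replicates, no read depth and no value of the input. By its centre, a peak was placed on the short arm (below 28 Mb, 639 peaks) or on the long arm (28 Mb and beyond, 478 peaks). Coordinates are in danRer10.

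CTCF is a protein with an array of zinc fingers that recognises a long, directional DNA motif. In vertebrates it halts the cohesin complex as cohesin extrudes chromatin loops, and many of its sites mark the borders of topological domains or insulate promoters from enhancers. Chromosome 4 is unusual among zebrafish chromosomes: its long arm is known to replicate late, to be heterochromatic and to hold many repeats, arrays of small RNA genes and large families of related genes, and in wild strains its end carries a sex-linked region. Genes and repeats at the positions given here were not analysed.

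CTCF peaks were spread along chromosome 4 in 4 unequal stretches. The short arm held 22.8 peaks per Mb, with a 95% interval of 21.1 to 24.7 (exact Poisson, as for the densities that follow, covering counting error only). The first 3 Mb of the long arm still held 65 peaks, or 21.7 per Mb (16.7 to 27.6). A sparse part from 31 to 70 Mb held 126 peaks, at 3.23 per Mb (2.69 to 3.85). The distal end, from 70 Mb to the last peak at 76.6 Mb, held 287 peaks, or 43.4 per Mb (38.5 to 48.7). The bounds at 31 and 70 Mb were taken from an earlier look at these data. Peaks covered 0.741% of the short arm, 0.105% of the sparse part and 1.55% of the distal end.

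**Figure D1:**
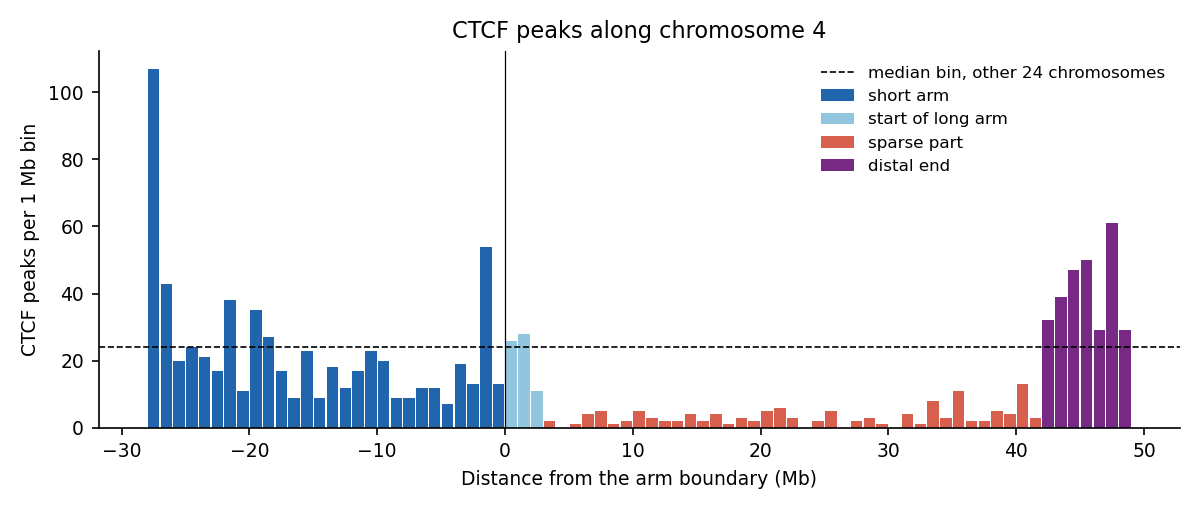
Number of CTCF peaks in each 1 Mb bin of chromosome 4 (y axis) against distance from the arm boundary at 28 Mb (x axis, Mb), coloured by stretch; the last bin is 0.619 Mb long. The dashed line is the median of 24 peaks over the 1252 whole bins of the other chromosomes. Of the 39 bins of the sparse part, none exceeds 13 peaks, whereas the whole bins of the distal end hold 29 to 61.

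Each stretch was set against a matched stretch of the other 24 chromosomes: the first 28 Mb for the short arm, 28 Mb to the end for the long arm, 31 Mb up to the distal stretch for the sparse part (21 chromosomes were long enough) and the same length at the right end for the distal end. The test was an exact permutation of the chromosome label, two-sided, over 40 comparisons (8 measures in 4 stretches and in the whole chromosome). With 1 chromosome against 24 its smallest possible p is 0.08, and 0.0909 against 21. No comparison could therefore pass 0.05, and the smallest adjusted p was 0.28. The ranks below are descriptions of where chromosome 4 stood.

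The long arm held 9.83 peaks per Mb on chromosome 4, below all 24 other chromosomes, which had a median of 28.7 and a lowest value of 18.9 (exact permutation p = 0.08). The stretches beyond 28 Mb differ in length, from 8.89 Mb on chromosome 25 to 46.1 Mb on chromosome 7, against 48.6 Mb on chromosome 4. The last 6.62 Mb of chromosome 25 held 356 of its 453 peaks there, while the longest other stretch, on chromosome 7, had 21.6 per Mb. The bounds of the sparse part and the distal end follow the density of peaks on chromosome 4 itself. Both densities entered the permutation comparisons and their adjustment (exact permutation p = 0.0909 sparse, p = 0.96 distal). With bounds chosen this way these p-values decide nothing, and the densities are given as a description. The sparse part had 3.23 per Mb, and the lowest of the 21 matched stretches had 15.6. It makes up 39 of the 48.6 Mb of the long arm, so the low densities of this part and of the arm are not separate results. The short arm was closer to the rest: its 22.8 per Mb exceeded 1 of the 24 others, which had a median of 28.2 (exact permutation p = 0.16). It was below all 24 with the boundary at 25 Mb (22.4 per Mb) and without the 2 Mb at each chromosome end (18.8 per Mb; exact permutation p = 0.08 each). With the boundary at 31 Mb (22.7 per Mb) or the higher-scoring 50% of the list (12.4 per Mb), 19 of 24 were denser (exact permutation p = 0.48 each). The distal end, at 43.4 per Mb, had 13 of the 24 other right ends above it, with a median of 43.8.

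The authors' peak score, a whole number whose scale is not stated, is used here only to rank peaks within the list. Long-arm peaks of chromosome 4 had a median score of 329, below all 24 other chromosomes (median 372, lowest 355; exact permutation p = 0.08). Of them 35.4% lay in the lowest-scoring 25% of all chromosome peaks (score 274 or less), above all 24 others, whose highest share was 29.2%. The distal end held 287 of these 478 peaks, so scores of the long arm and of the distal end are not separate results. Low scores did not run along the whole arm. The median was 296 from 28 to 31 Mb, 380.5 from 31 to 60 Mb, 277.5 from 60 to 70 Mb and 329 at the distal end. The short arm stood on the other side of the others' median. Its median score was 387, and only 1 of the 24 matched stretches was higher (median 368.75; exact permutation p = 0.16). With the boundary at 25 Mb it was 399, above all 24. Without the 2 Mb at each chromosome end it was 371, with 6 of 24 higher (exact permutation p = 0.56). The share in the lowest-scoring 25% was 23.2%, with 19 of 24 higher (exact permutation p = 0.48). Among the higher-scoring 50% of the list alone, the short-arm median of 510 was below the others' median of 526.75.

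**Figure D2:**
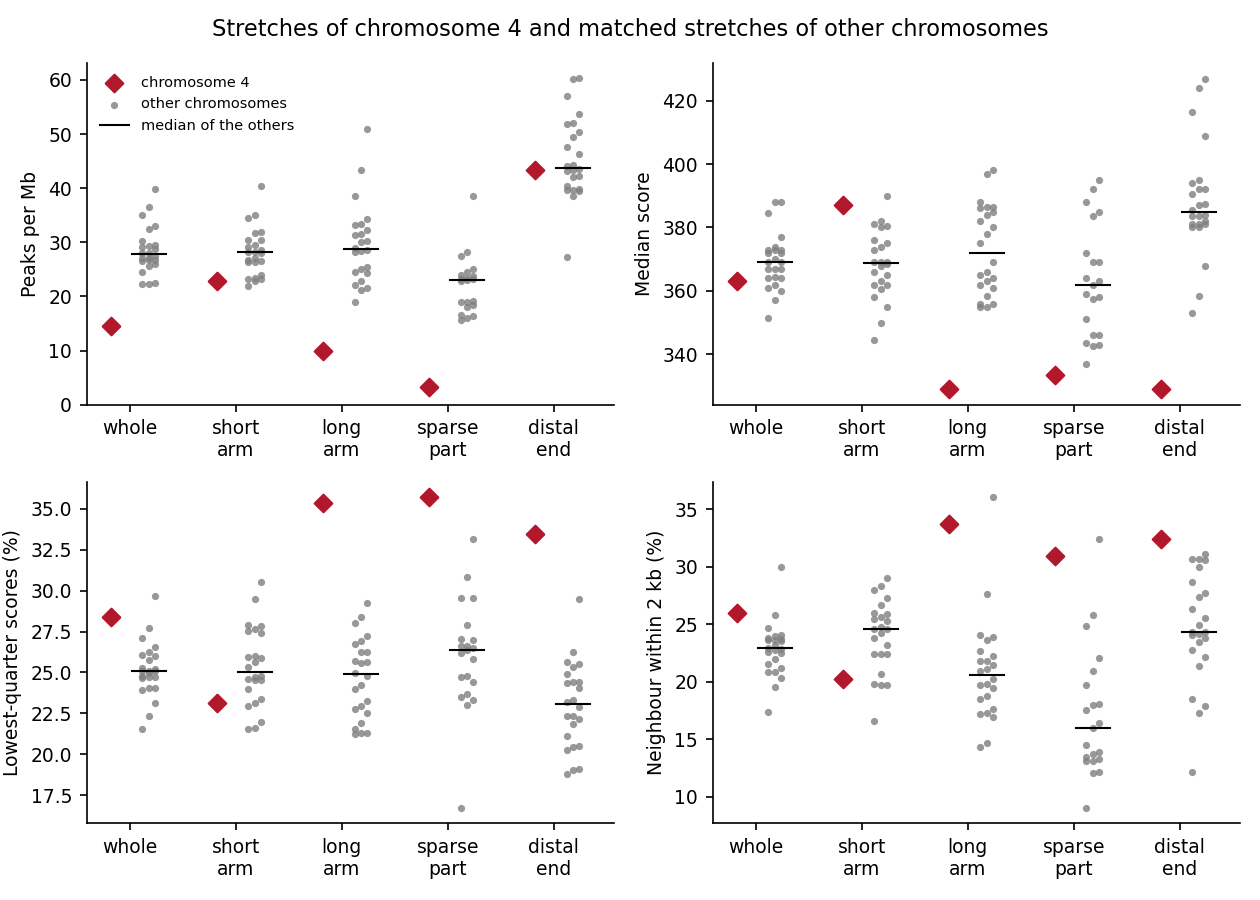
Peaks per Mb, median score, share of peaks in the lowest-scoring 25% and share with a neighbour within 2 kb (y axes) for the whole chromosome and 4 stretches (x axis), with chromosome 4 as red diamonds, each other chromosome as a grey point and their median as a line. The y axes other than that of density do not start at 0. Chromosome 4 lies below all others in density and median score on the long arm and in the sparse part. Its distal density of 43.4 per Mb lies among the others. For 35 to 65 Mb alone (not drawn) its median score is above the others' median, with 4 of 17 others higher.

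The short arm was densest at its tip. The first peak spanned 6949 to 7366 (score 767), and the first 2 Mb held 150 peaks, or 75 per Mb, with 4 of the other 24 left ends denser (median 59.5; exact permutation p = 0.40). Scores were high there: the median was 453, with 3 of 24 other left ends higher, and 13.3% of the peaks were in the lowest-scoring 25%, with 1 of 24 lower (median of the others 20.9%; exact permutation p = 0.16). The densest windows of 100 kb on the arm were 100001 to 200000 with 32 peaks, 200001 to 300000 with 21 and, near the other end of the arm, 26600001 to 26700000 with 11.

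Groups of peaks were linked wherever neighbouring centres lay within 2 kb. The largest group of the chromosome lay in the first of those windows, with 7 peaks between 172940 and 179353. Their scores in order along the chromosome were 523, 363, 346, 677, 779, 667 and 436, so none of the 7 reached the top 5% of scores (905 or more). A group of 5 peaks spanned 225227 to 231072, with scores of 231 to 580. A group of 4 spanned 207716 to 212368, with scores of 170 to 694, and ended in a peak 1340 bp wide. The largest group on the other chromosomes had 4 to 14 peaks.

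Away from the tip the short arm was thin and its peaks were spaced. The stretch from 2 to 25 Mb held 409 peaks (17.8 per Mb), with a median of 17 per bin of 1 Mb and 7 to 38 in single bins. Only 11.5% of these peaks had a neighbour within 2 kb and 2.20% lay in groups of 3 or more, against 36% and 18.7% in the first 2 Mb. The bounds leave out the tip and a dense bin from 26 to 27 Mb. From 2 to 28 Mb the neighbour share was 15.3%, below all 24 others (median 22.5%; exact permutation p = 0.08). The group share there was 5.52%, with 15 of 24 others higher. The 36% of the first 2 Mb was exceeded by 9 of 24 other left ends (median 34.2%). The median distance to the nearest peak was 14.1 kb between 2 and 25 Mb, against 2.95 kb in the first 2 Mb.

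The highest-scoring peak of the short arm was a single one. It spanned 15104658 to 15105046, scored 2272 and ranked 33 of the 36540 chromosome peaks, with 110 kb free of peaks on its left and 130 kb on its right. The next in score were at 12930635 to 12931175 (2169, rank 43), 3014638 to 3015255 (1831, rank 95), 1834528 to 1835222 (1679) and 26432830 to 26433424 (1640). None of these 5 had another peak within 2 kb. The widest short-arm peaks, with their scores, measured 1549 bp at 139020 to 140568 (872), 1478 bp at 5732977 to 5734454 (1335) and 1406 bp at 26621557 to 26622962 (558). Their summits lay at 88.4%, 15.3% and 52.0% of the width.

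Close to the arm boundary a single bin of the short arm was dense, between bins of 13 peaks on each side. The bin from 26 to 27 Mb, singled out after its values were seen, held 54 peaks, more than any other of the arm's 28 bins except the first. It held 6 of the 16 short-arm groups of 3 or more peaks, and 18 of its 54 peaks lay in them. Scores were low, with a median of 308.5 and 21 peaks (38.9%) in the lowest-scoring 25%. Widths were large, with a median of 318 bp, against 260 bp over the short arm, and 4 peaks were over 1000 bp wide.

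The bin from 27 to 28 Mb held 13 peaks, with a median score of 310 and no group. The last peak of the short arm (27989107 to 27989334) scored 264 and the first of the long arm (28107865 to 28108650) scored 1427, with 119 kb free of peaks on its left and 164 kb on its right. Between 28 and 31 Mb the median score was 296, 43.1% of the 65 peaks were in the lowest-scoring 25% (95% Clopper-Pearson interval 30.8 to 56.0%), and 44.6% had a neighbour within 2 kb (32.3 to 57.5%). There were 8 pairs and 4 groups of 3 or more peaks in these 3 Mb. Members of a pair or group share their closeness, so the interval of the neighbour share treats dependent peaks as independent and is too narrow. The largest group, with 4 peaks, spanned 30356380 to 30360019 and scored 177 to 519. In the top 5% of scores were 4 of the 65 peaks (6.15%, interval 1.70 to 15.0%), against 5.03% on the other chromosomes. They scored 1796 at 28604965 to 28605430, which sat in a group of 3 whose other members scored 254 and 218, 1427 for the first peak, 1161 at 30396361 to 30397076 and 1013 at 28576155 to 28576698.

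The sparse part began after a peak at 30583162 to 30583433. Of its 39 bins of 1 Mb, 35 held 5 peaks or fewer, 4 of them none, whereas 9 of 1252 bins on the other chromosomes held 5 or fewer and none was empty. The 5 longest intervals without a peak measured 2.22 Mb (57075148 to 59292380), 2.15 Mb (31381962 to 33530300), 2.05 Mb (50374785 to 52422589), 1.74 Mb (36113896 to 37854301) and 1.53 Mb (53917227 to 55445477). The peaks bordering them ranged widely in score. Those of the longest scored 267 and 265, both in the lowest-scoring 25%. Those of the second scored 1816 and 660, and those of the fourth 1091 and 265. Those of the third scored 332 and 649, and those of the fifth 319 and 974. In all, 25 intervals longer than 0.5 Mb made up 26.1 Mb of the 39 Mb. The longest interval on the short arm was 0.577 Mb (25192488 to 25769969).

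Strong peaks recurred in this sequence. Of the 126 peaks, 11 were in the top 5% of scores, or 8.73% (95% Clopper-Pearson interval 4.44 to 15.1%), above the highest of the 21 matched stretches, 7.41% (exact permutation p = 0.0909). The matched stretches held more peaks, 172 to 669. Low scores were frequent as well: 35.7% were in the lowest-scoring 25%, above all 21 (median 26.4%, highest 33.2%; exact permutation p = 0.0909). From 35 to 65 Mb that share was 30.4%, with 1 of 17 others higher. The strongest peak of the sparse part, at 53829779 to 53830159, scored 3306 and ranked 8 of all chromosome peaks. It was 381 bp wide with its summit at 47.9% of the width, and lay 305 kb from the peak on its left and 56.2 kb from the one on its right. That right neighbour, at 53886397 to 53886790, scored 1409. The second strongest, at 31381629 to 31381962, scored 1816 and ranked 100, with 59.4 kb free on its left and the second longest interval, 2.15 Mb, on its right.

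Of the 11, 6 had no other peak within 100 kb, measured between centres. They spanned 36113625 to 36113896 (score 1091), 38934100 to 38934666 (1271), 50058450 to 50058823 (1637), 55445477 to 55445863 (974), 65816785 to 65817126 (1283) and 69735778 to 69736170 (1015). The last is the final peak before the distal end, with 710 kb free on its left and 796 kb on its right. Widths of these 6 ran from 272 to 567 bp. The other 5 had a neighbour closer than 100 kb. They were the 3 already given, with scores of 3306, 1816 and 1409, and those at 35769036 to 35769426 (911) and 42228871 to 42229133 (925). No peak of the sparse part was wider than 1000 bp. The widest, 959 bp at 62240817 to 62241775, scored 597, and the next, 955 bp at 68651662 to 68652616 and 865 bp at 37929261 to 37930125, scored 324 and 273.

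**Figure D3:**
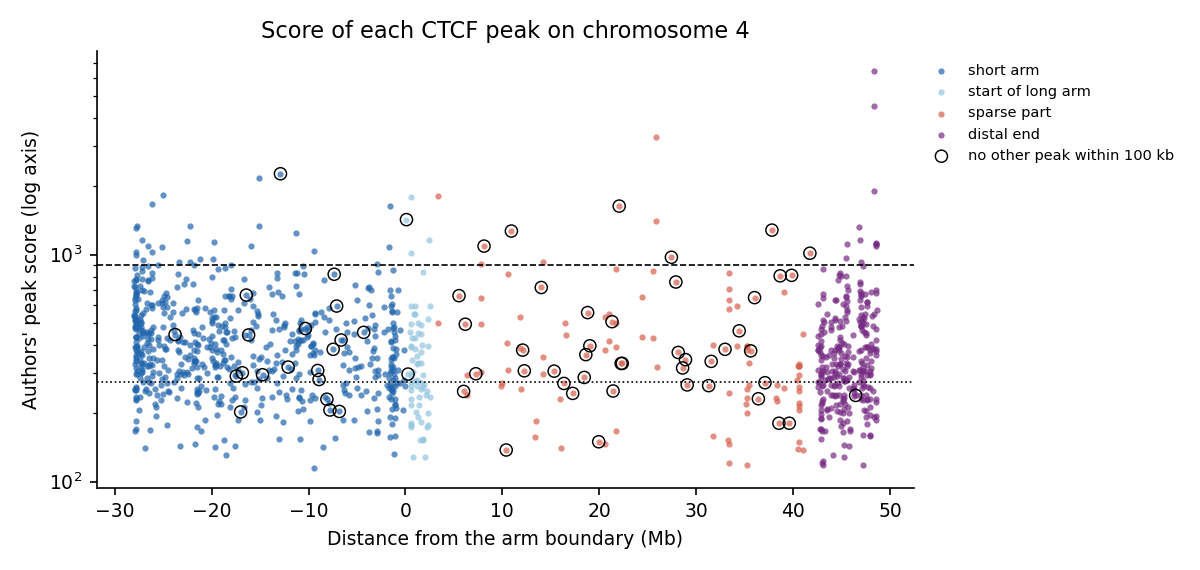
Authors' score of each of the 1117 peaks (y axis, log scale) against distance from the arm boundary (x axis, Mb), with circles around peaks that have no other peak within 100 kb. The dashed line marks the top 5% of scores (905) and the dotted line the lowest 25% (274). Scores of 905 and above recur along the sparse part, 6 of them circled, and the highest values, 6466 and 4499, stand at the far right.

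Most isolated peaks lay in the sparse part, whose bounds were themselves drawn around widely spaced peaks. On chromosome 4, 66 peaks (5.91%) had no other peak within 100 kb, a larger share than on any of the other 24 chromosomes (median 1.72%, highest 3.22%; exact permutation p = 0.08). Isolation and density are read from the same peak positions, so this share is no separate result from the low density. The sparse part held 43 of the 66 isolated peaks (34.1% of its own peaks) and the short arm 20 (3.13%). The first 3 Mb of the long arm held 2 (3.08%) and the distal end 1 (0.348%). Without another peak within 500 kb there were 6 peaks, all in the sparse part, and none among 35423 on the other chromosomes. Of those 6, 5 scored between 150 and 307, and 1, at 69735778 to 69736170, scored 1015. Isolated peaks of the sparse part had a median score of 363, and peaks there with a neighbour within 2 kb one of 324. The order was the other way from 31 to 60 Mb (339 for 31 isolated peaks and 407.5 for 14 with a neighbour) and as over the whole from 60 to 70 Mb (422.5 for 12 and 322 for 25). Over the whole chromosome the difference between the medians of these classes was 21, with 5 of the other 24 chromosomes higher (exact permutation p = 0.48).

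The sparse part was also described on each side of 60 Mb, a bound chosen after the values were seen, so the contrast is no test. The first 29 Mb, from 31 to 60 Mb, held 74 peaks (2.55 per Mb), with a median score of 380.5, 9 peaks (12.2%) in the top 5% and 25.7% in the lowest 25%. The last 10 Mb, from 60 to 70 Mb, held 52 peaks (5.20 per Mb), with a median score of 277.5, 2 peaks (3.85%) in the top 5% and 50.0% in the lowest 25%. All 3 groups of 3 or more peaks lay in the last 10 Mb, where 48.1% of peaks had a neighbour within 2 kb, against 18.9% before 60 Mb. Over the whole sparse part 39 of the 126 peaks (30.95%) had one, with 1 of 21 matched stretches higher (median 16.0%; exact permutation p = 0.18). The bounds of this part follow peak density, and closeness is read from the same positions, so this p-value is no separate test. The 3 groups spanned 61377195 to 61379543 (4 peaks, scores 121 to 706), 68650857 to 68653461 (4 peaks, 251 to 330) and 63222932 to 63225150 (3 peaks, 200 to 397). The median score over the whole sparse part, 333.5, was below all 21 matched stretches (median 362; exact permutation p = 0.0909). Between 35 and 65 Mb, however, it was 378.5, above the others' median of 359, with 4 of 17 others higher. With peaks within 500 bp merged it was 350.5, with 16 of 21 others higher. Among the higher-scoring 50% of the list it was 553, above the others' median of 522.

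**Figure D4:**
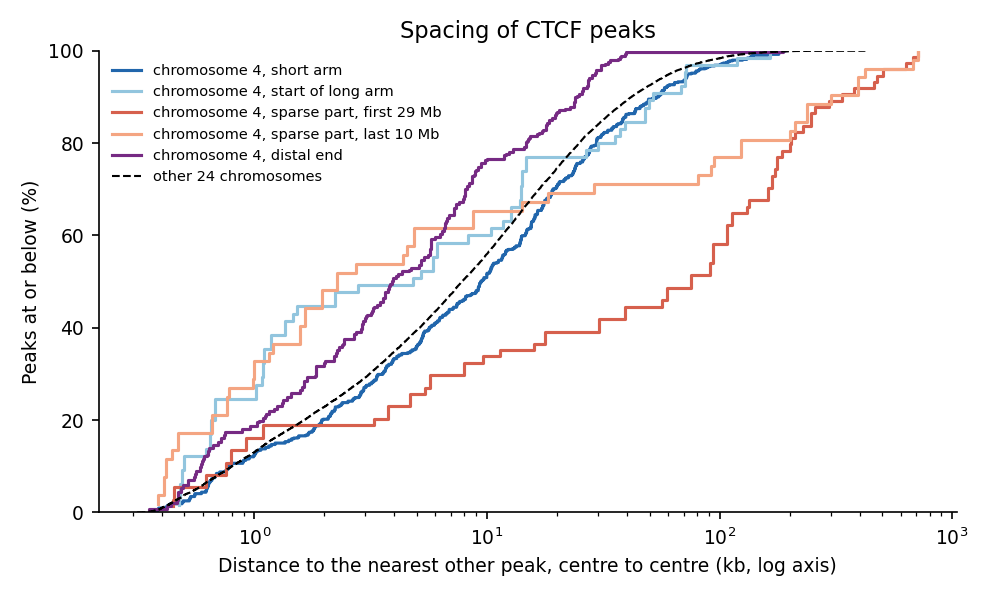
Share of peaks (y axis, %) whose nearest other peak lies at or below a given distance between centres (x axis, kb, log scale), for 5 stretches of chromosome 4 and for the 35423 peaks of the other 24 chromosomes. The first 29 Mb of the sparse part lie far to the right (median 75.3 kb), the last 10 Mb of it split into close and distant peaks (quartiles 0.771 and 92.5 kb), and the distal end lies to the left (median 3.92 kb, against 7.81 kb on the other chromosomes).

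The distal end began after a long interval. No peak lay between 69736170 and 70532121, and the bins from 70 Mb on then held 32, 39, 47, 50, 29 and 61 peaks, with 29 more in the last 0.619 Mb. The densest windows of 100 kb on the long arm were 76500001 to 76600000 with 14 peaks, 74900001 to 75000000 with 13 and 28500001 to 28600000 with 12. Density lay among that of other right ends, while scores lay below theirs. The median score was 329, below all 24 others (median 384.75, lowest 353; exact permutation p = 0.08), and 33.4% of the peaks were in the lowest-scoring 25%, above all 24 (median 23.1%, highest 29.5%). In the top 5% were 12 of the 287 peaks, or 4.18%, with 23 of 24 others higher (exact permutation p = 0.16), whereas within the higher-scoring 50% of the list the share in its own top 5% was 8.13%, above the others' median of 5.78%. Without the 2 Mb at each chromosome end it was 1.12%, below all 24 others (median 5.15%).

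Distal peaks also lay close together. A neighbour within 2 kb was found for 32.4% of them, above all 24 other right ends (median 24.3%, highest 31.1%; exact permutation p = 0.08). The start of the distal end follows peak density on chromosome 4. Closeness is read from the same positions, so this p-value is no separate test. With the distal end taken from 72 Mb the share was 33.3%, and 4 of 24 others were higher (median 27.1%; exact permutation p = 0.40). Among the higher-scoring 50% of the list the order turned round, with 11.4% on chromosome 4 and a median of 15.7% on the others. With peaks within 500 bp merged the share was 15.6%, and 10 of 24 others were higher. The close neighbours were pairs more than larger groups: 35 pairs and 7 groups of 3 or more. The share in such groups, 8.01%, was exceeded by 5 of the 24 others. The largest groups were 4 peaks at 74266800 to 74268504 with scores of 239 to 267 and 4 peaks at 74909521 to 74913270 with scores of 309 to 690. The other 5 groups had 3 peaks each, and the shortest of them spanned 70864866 to 70866054 with scores of 295 to 472.

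Scores were higher in the outermost stretch than inward of it. In the whole bins from 70 to 76 Mb the median scores were 303.5, 285, 331, 311.5, 355 and 326, and in the last 0.619 Mb the median was 469. Of the 12 distal peaks in the top 5% of scores, 7 lay in that last stretch. The strongest, at 76319940 to 76323886, scored 6466 and ranked 2 of all chromosome peaks. It was 3947 bp wide, with its summit at 76320425, 12.3% of the way from its start. Separated from it by 111 bp was a group of 3 peaks, at 76323998 to 76324220 (547), 76324366 to 76324787 (1906) and 76325046 to 76326198 (4499, rank 3). A stretch of 214 kb without peaks followed. Beyond it, the peaks in the top 5% were those at 76548280 to 76548721 (1112), 76586844 to 76587248 (1093), 76591181 to 76592122 (1117) and 76594356 to 76594738 (1127). Inward of the tip the highest scores were 1326 at 74798318 to 74798846 and 1164 at 74880100 to 74880409. The last peak of the chromosome spanned 76618180 to 76618499 and scored 572.

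At the outermost 2 Mb of both arms the values were as follows. The right end held 54.5 peaks per Mb with a median score of 386 and 25.7% of peaks in the lowest 25%, and the left end 75 per Mb, 453 and 13.3%. Among the other chromosomes, 17 of 24 right ends were denser than that of chromosome 4 and 18 had a higher median score (exact permutation p = 0.64 and p = 0.56).

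Peaks of both arms were mostly narrow. Long-arm peaks had a median width of 272 bp (quartiles 228 and 381 bp), and 1 of 24 other chromosomes was wider there (median 260 bp; exact permutation p = 0.16). Short-arm peaks had one of 260 bp (quartiles 226 and 344.5 bp), with 18 of 24 wider. Width and score went together less on the long arm (Spearman's rho = 0.324 across 478 peaks, which share libraries and are not independent) than on the short arm (0.483 across 639 peaks) or on the other chromosomes (0.503 across 35423 peaks). Peaks wider than 1000 bp numbered 16, with 10 on the short arm and 6 at the distal end. They made up 1.43% of the peaks of chromosome 4, near the 1.25% on the other chromosomes. The share was 1.56% on the short arm and 2.09% at the distal end (Clopper-Pearson interval 0.771 to 4.49%). Next to the 3947 bp peak, the widest at the distal end were 2278 bp at 74970674 to 74972951 (score 676) and 1552 bp at 74964265 to 74965816 (487).

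Summits lay near the middle of the peaks on both arms, at a median of 49.4% of the width from the start on the long arm and 50.4% on the short arm. In the outer 25% of the width on either side were 9.21% of the long-arm summits (95% Clopper-Pearson interval 6.77 to 12.2%) and 6.73% of the short-arm summits, and the other chromosomes had 6.87%. The median distance of a summit from the middle was 8.07% of the width on the long arm, above all 24 other chromosomes (median 7.10%; exact permutation p = 0.08), and among the higher-scoring 50% of the list 5.76%, below the others' median of 6.10%. On the short arm it was 6.83%, with 18 of 24 others above it.

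The chromosome held 8 of the 100 highest-scoring chromosome peaks, against 3.06% of all chromosome peaks. That count was as many as the highest of the other 24 chromosomes (median 4, highest 8; exact permutation p = 0.16). Counts are not scaled by the peaks of each chromosome. Per 1000 peaks there were 7.16 on chromosome 4, and the highest of the others was 5.52, on chromosome 14. This rate was not tested. Of the 8 peaks, 3 were at the distal end, 2 in the sparse part and 3 on the short arm. The 3 distal ones lay side by side between 76319940 and 76326198, so they are not separate places along the chromosome. Over the whole chromosome 28.4% of peaks were in the lowest-scoring 25%, and 1 of 24 others had a larger share (exact permutation p = 0.16). The comparisons of the 2 Mb ends, of isolated peaks and of the 100 highest scores, 11 in all, were added after the values were seen, and their smallest adjusted p was 0.587.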

How the data were processed

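Per the labels' protocols, 24 hpf embryos were crosslinked for 15 min with 1% formaldehyde, their chromatin was broken into fragments of 100 to 200 bp, and libraries were read from 1 end over 100 bp. Per the submitters' processing notes, the build was danRer10 and the tools, listed with no role or order, included MACS2, Bowtie2 2.2.5, Picard 1.45, SAMtools 1.1 and cutadapt 1.3. Peaks were called on combined replicates, per the file headers. The score of each peak is the authors' deposited value, whose scale is not stated. The calling threshold is not given in the sources used here, and the summit is the authors' offset within the peak. Read depth is unknown.

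The members, bounds and lists were chosen with earlier results of these data known. Peaks were placed by centre, and lengths were counted up to the end of the last peak of a chromosome, with assembly gaps not removed. Matched sparse stretches needed 50 peaks and 5 Mb. Peaks named were the 5 highest-scoring and 3 widest per stretch, the 3 largest groups, the 3 densest windows of 100 kb, isolated top-5% peaks of the sparse part, borders of the 5 longest intervals and the outermost peaks; others were added after their values were seen. P-values were adjusted by Benjamini-Hochberg. Intervals are at the 95% level and cover counting error only. The functions were tested on simulated peaks. Python 3.11.15, numpy 2.4.6, scipy 1.17.1, pandas 2.3.3 and matplotlib 3.10.9 were used. Alternatives were the higher-scoring 50% of peaks, merging within 500 bp, other bounds, neighbours within 1 or 5 kb, no chromosome ends and leaving out the densest other chromosome, 22.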

Additional observations from a re-analysis of the deposited data

Results flagged for a closer look

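Beside the peaks on chromosomes, the list held 1085 peaks on unplaced scaffolds, which entered none of the comparisons of chromosome 4 and are given because they are signal in sequence those comparisons left out. Whether any of them belong to chromosome 4 was not tested.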

How the results depend on the processing

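Of 212 recomputed values of the 40 comparisons, 186 kept their side of the other chromosomes' median, and 21 comparisons did so under every alternative. Among them were the low density and low median score of the long arm and the low median score of the distal end. So were the large shares of low scores in both. For the higher-scoring 50% and for merged peaks, however, the top 5% and lowest 25% were cut anew within that list. In the higher-scoring 50% the lowest 25% is thus another set of peaks, all above the score of 274. It held 29.1% of long-arm peaks and 28.5% of distal peaks (others' medians 24.1% and 23.4%), with 2 and 1 of 24 others higher. Scores of the long arm and of the distal end are not separate results, as 287 of the 478 long-arm peaks are distal. The low density of the sparse part was another such comparison, but its bounds follow that density, so its persistence adds no support. The sparse part makes up 39 of the 48.6 Mb of the long arm, so the low densities of both are not separate results. With the arm boundary at 25 or 31 Mb the whole sparse part stayed in the arm. Leaving out chromosome ends or the densest other chromosome cannot change the sparse part and was not counted for it. None reached 0.05, since the number of chromosomes allows no smaller p than 0.08. The 25 reversals and 1 tie follow, and their causes were not tested. Among the higher-scoring 50% of peaks (553 on chromosome 4), the whole chromosome changed sides in median width (294 bp), the top 5% share (6.69%), summit distance from the middle (6.03% of the width) and the shares with a neighbour (10.8%) and in groups (1.81%). With those peaks the short arm changed in median score (510) and in the top 5% (4.90%) and group shares (1.15%), the long arm in summit distance (5.76%), the sparse part in median score (553) with its group share at 0%, equal to the others' median, and the distal end in width (308 bp), top 5% share (8.13%), summit distance (5.69%) and neighbour share (11.4%). Merging peaks within 500 bp left 1024 on chromosome 4 and changed the whole median score (378.5) and, in the sparse part, summit distance (8.30%) and the group share (0%). The short arm's group share was 6.62% with the boundary at 25 Mb, 3.29% for neighbours within 1 kb and 5.52% without 2 Mb at each end, each below the others' median, and its summit distance was 7.08% with the boundary at 31 Mb. Taking 35 to 65 Mb as the sparse part gave a median score of 378.5 and a summit distance of 7.25%. Without 2 Mb at each end the distal density was 38.5 per Mb, above the others' 37.5, and the width 262.5 bp. No paired analysis was possible because the list pools both replicates, which also means that neither could be left out. Depth is unknown, so sequence without a peak is not shown to be free of CTCF. Assembly gaps and how well reads could be placed in repeats were not analysed, and their part in the low density was not tested.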
